A study of Mus musculus with 4 samples.

Results

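Hmox1, Mgst1, Gstm1 and Gstm3 encode haem oxygenase 1 and a set of glutathione transferases, enzymes that cells use against haem, reactive aldehydes and peroxides. They were followed in C2C12 cells, a mouse myoblast line, exposed to the compound labelled Bex. The members were chosen by the values of the same comparison. They are 4 of the 536 genes with a single symbol in the authors' deposited table, which also holds the related transferase gene Mgst3 and lists transcript clusters (the probe sets of one transcript region) that differed by 1.5-fold or more between Bex and Ctrl. Each had 1 cluster there, so 4 of the 35557 clusters on each array are described. Both groups were confluent cultures kept for 48 h in a basal medium for adipogenesis, with Bex at 10 µM on 2 arrays and without it on 2 arrays (Ctrl). The labels do not spell out Bex; it is known to be bexarotene, which activates retinoid X receptors, and the study's title places the work in brown fat reprogramming.

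Haem oxygenase 1 opens the haem ring and releases biliverdin, carbon monoxide and iron. Its gene is switched on in many cell types by haem, heavy metals, heat and oxidants, in large part through the transcription factor NRF2 (Nfe2l2) and its opponent Bach1. Glutathione transferases join the tripeptide glutathione to electrophiles. The mu class, to which Gstm1 and Gstm3 belong, is soluble in the cytosol, whereas Mgst1 is an integral protein of the endoplasmic reticulum and the outer mitochondrial membrane that also reduces lipid hydroperoxides. Several genes of both kinds carry antioxidant response elements, the DNA sites of NRF2.

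The 4 genes went in opposite directions. Hmox1 was 2.80-fold and Mgst1 3.38-fold higher with Bex, and the mu class genes Gstm1 and Gstm3 were 1.67-fold and 1.56-fold lower. Whether the Gstm3 cluster is rightly named is uncertain, as set out below. Because the comparison that chose the genes is the one described, these values carry no test. Values are on the log2 scale of RMA, on which 1 unit is a doubling, and differences are Bex minus Ctrl with the standard error (SE) of limma's fit over all clusters.

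Hmox1 had values of 11.66 and 11.56 on the Bex arrays, against 10.20 and 10.04 on the Ctrl arrays. Both Bex arrays were high and both Ctrl arrays low, without overlap. The means were 11.61 ± 0.07 with Bex and 10.12 ± 0.12 in Ctrl (SD, n = 2 each), a difference of 1.49 ± 0.10 (SE). Taking each Bex array against each Ctrl array gave differences from 1.36 to 1.62, whereas the replicates of a group lay 0.10 (Bex) and 0.16 (Ctrl) apart. Among all 35557 clusters the difference ranked 122nd of the increases, and among the 545 clusters with a single symbol it ranked 62nd. The authors' deposited table gives Hmox1 a fold change of 2.77 and an FDR p-value of 0.339.

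Mgst1 had values of 9.81 and 9.94 with Bex, against 8.21 and 8.03 in Ctrl. The groups were again apart, by far more than the gaps of 0.13 between the Bex arrays and 0.18 between the Ctrl arrays. The means were 9.88 ± 0.09 with Bex and 8.12 ± 0.13 in Ctrl (SD, n = 2 each), and the difference of 1.76 ± 0.11 (SE) was the highest of the 4 genes. Single pairs of arrays differed by 1.60 to 1.91. It ranked 64th of the increases over all clusters and 34th over the named ones, and the authors' deposited table lists it at a fold change of 3.42 with an FDR p-value of 0.320.

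Gstm1, a main cytosolic transferase of the mu class, had values of 10.72 and 10.79 with Bex, against 11.53 and 11.45 in Ctrl. Both Bex arrays lay below both Ctrl arrays. The means were 10.76 ± 0.05 with Bex and 11.49 ± 0.06 in Ctrl (SD, n = 2 each), a difference of -0.74 ± 0.09 (SE). The replicates of Gstm1 were the closest of the 4 genes, 0.07 apart with Bex and 0.08 apart in Ctrl. Every one of the 4 array pairs showed it lower, by -0.66 to -0.81. It ranked 614th of the decreases over all clusters and 119th over the named ones. The authors' deposited table gives it an FDR p-value of 0.339.

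Gstm3, a second mu class transferase, had values of 7.35 and 7.24 with Bex, against 8.05 and 7.82 in Ctrl. The groups did not overlap. The replicates lay 0.11 apart with Bex and 0.23 apart in Ctrl, the widest Ctrl gap of the 4 genes. The means were 7.29 ± 0.08 with Bex and 7.93 ± 0.16 in Ctrl (SD, n = 2 each), a difference of -0.64 ± 0.12 (SE). Array pairs differed by -0.47 to -0.81. Against the second Ctrl array both Bex arrays fell short of 1.5-fold, the first at -0.47 and the second only just, at -0.5849. Without the first Ctrl array the difference was -0.53. Gstm3 ranked 800th of the decreases over all clusters and 153rd over the named ones, with an FDR p-value of 0.364 in the authors' deposited table.

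**Figure D1:**
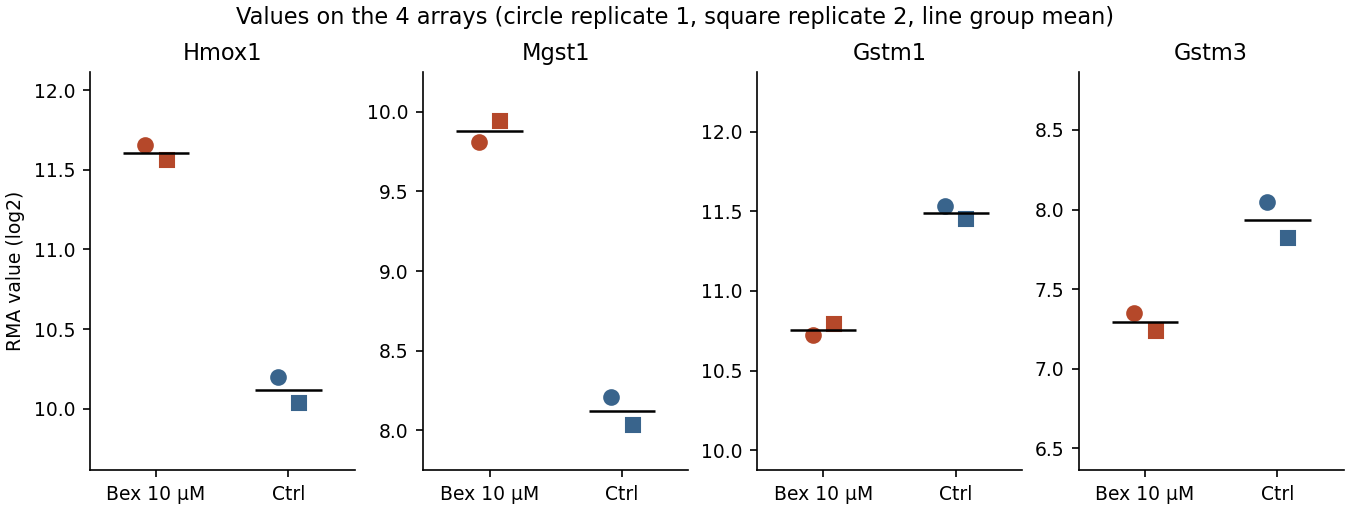
RMA values (log2, vertical axis, the same span in each panel) of Hmox1, Mgst1, Gstm1 and Gstm3 on the 2 Bex arrays (left, red) and the 2 Ctrl arrays (right, blue), with replicate 1 as a circle, replicate 2 as a square and the group mean as a line. Hmox1 and Mgst1 are higher and Gstm1 and Gstm3 lower with Bex, and in no panel do the groups overlap.

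Groups that do not overlap are common with 2 arrays each. Over all clusters 20.6% had both Bex arrays above both Ctrl arrays and 24.2% had them below, so the separation of these genes says little by itself. Differences of 1.5-fold or more were rarer, with 3.62% of clusters higher and 2.82% lower. These shares, and the members' ranks over all clusters, take in 6669 clusters with lower ID numbers than any the authors listed. None of the 6669 could be named, and differences beyond 1.5-fold occurred among them in both directions. Shares and ranks without them were not computed, so how rare the members' differences are among the remaining clusters was not tested. The authors' deposited table, whose rows the members had to be, holds 0.976% of the clusters as higher and 0.596% as lower, and nothing is read from the members' presence in it. Its smallest fold size is 1.51 and its highest p-value before FDR adjustment is 0.049968. The members nearest to its fold cutoff were Gstm1, listed at -1.62, and Gstm3, listed at -1.63 (Ctrl over Bex with a minus sign). Genes of the same families that fell just outside the cutoffs have no name in the files and were not analysed here.

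The Ctrl gaps of Hmox1, Mgst1 and Gstm3 were wider than the median of clusters of like level. Clusters in the upper tertile of mean value had a median gap of 0.0949 between the Bex arrays and 0.0753 between the Ctrl arrays, and all 4 genes belong to that tertile. The Ctrl gaps of Gstm3, Mgst1 and Hmox1, from 0.16 to 0.23, exceeded the Ctrl median, and that of Gstm1 (0.083) was close to it. The Bex gaps of Mgst1 (0.13) and Gstm3 (0.11) also exceeded the Bex median. That of Hmox1 (0.096) was close to it and that of Gstm1 (0.07) lay below it. In each of the 4 genes the first Ctrl array was the higher of the Ctrl pair.

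**Figure D2:**
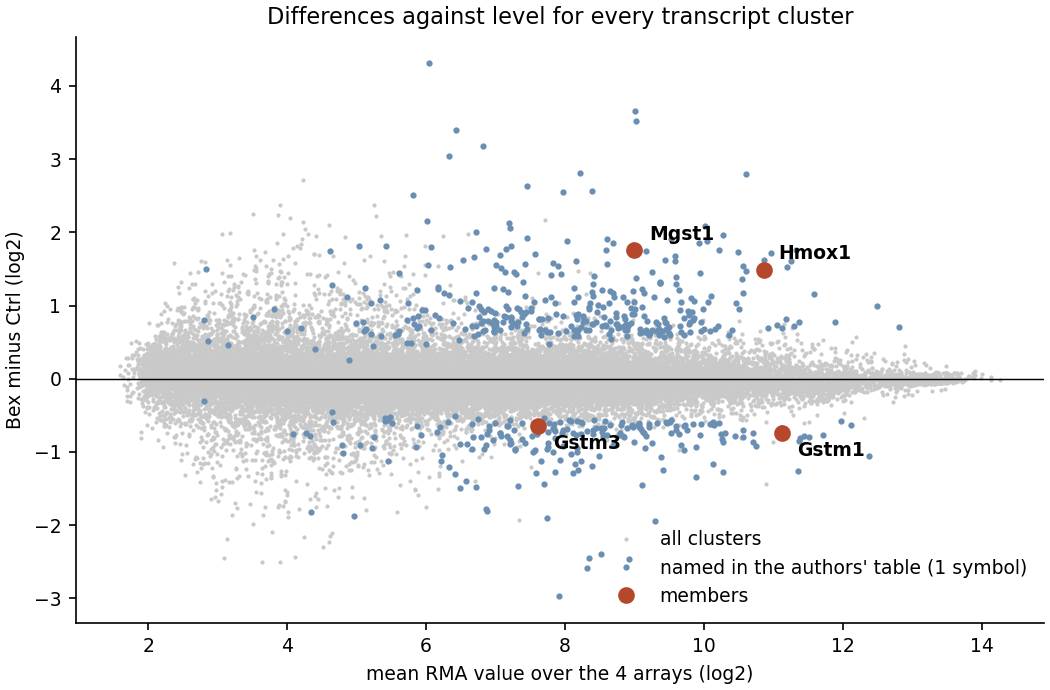
Difference between Bex and Ctrl (log2, vertical axis) against the mean RMA value over the 4 arrays (log2, horizontal axis) for all 35557 clusters in grey, the 545 named clusters in blue and the 4 members in red. Scatter is wider among clusters of low values than among those of high values; Mgst1 is marked at 1.76, Hmox1 at 1.49, Gstm3 at -0.64 and Gstm1 at -0.74.

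The name of the Gstm3 cluster is uncertain. Cluster IDs on this array run chromosome by chromosome: of 451 named clusters whose neighbours by ID in the table come from a single chromosome by RefSeq (GRCm38.p6), 444 are named for a gene of that chromosome. Hmox1 (chromosome 8), Mgst1 (chromosome 6) and Gstm1 (chromosome 3) are among those that match. Gstm3 is one of the 7 that do not. Its gene lies on chromosome 3, but the cluster's ID, 10362511, falls among clusters of chromosome 10, after those of Echdc1 and the triadin gene Trdn and before those of Sesn1 and Cd24a. RefSeq lists 7 protein-coding Gstm genes, all on chromosome 3, a pseudogene on chromosome 5 and 0 Gstm symbols on chromosome 10. Whether this cluster reads Gstm3 itself or a copy elsewhere was not tested, since the probe sequences were not analysed here.

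**Figure D3:**
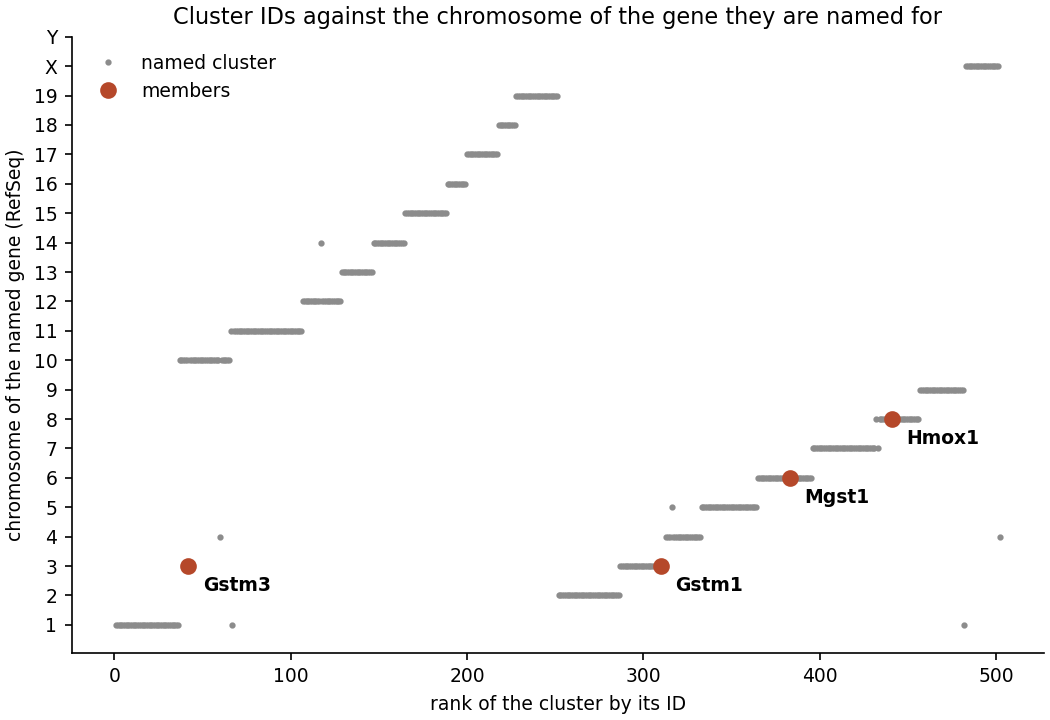
Named clusters ranked by their ID (horizontal axis) against the RefSeq chromosome of the gene they are named for (vertical axis), with the members in red. The grey points mostly form 1 block per chromosome; Hmox1, Mgst1 and Gstm1 sit in the blocks of chromosomes 8, 6 and 3, whereas Gstm3 sits under the block of chromosome 10.

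Gstm1 and Gstm3 belong to a family of similar sequences, and whether probes for one pick up signal from the other was not tested. In RefSeq they lie on the same strand with 1 protein-coding gene, Gstm2, between them. The longest run that their windows around the transcription start share (250 bases before it and 50 after) is shown because it lies within the transcribed part that a probe could meet. It covers chr3:108017784-108017799 of Gstm1 and chr3:107969149-107969164 of Gstm3 (GRCm38.p6, minus strand).
Gstm1 and Gstm3 shared run: TGAGAAGACCACAGCA
It is 16 bases long, written whole in capitals. Among 32851 RefSeq windows of 250 bases before and 50 after a start, it occurred in those of 2 of the 7 Gstm genes, Gstm1 and Gstm3. It occurred in windows of 0 genes outside the family. Its presence in the windows of Gstm1 and Gstm3 follows from how the run was chosen. A run this long is rare in any window, so nothing about specificity is read from these counts. Whether any probe of either cluster covers this run was not tested.

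The promoters were set beside these values because one higher gene and both lower ones had a window in the RefSeq table, 3 of the 4 members in all. The core of the antioxidant response element, TGACNNNGC, was searched on both strands in the 250 bases before each start. The half-site of nuclear receptors, AGGTCA, which pairs of receptors such as the retinoid X receptors and their partners bind as repeats, was searched in the same way. Below, capitals mark the match to the element core, on the minus strand and beginning 56 bases before the start of Mgst1. The windows are chr6:138140277-138140526 for Mgst1 (plus strand), chr3:108017819-108018068 for Gstm1 (minus strand) and chr3:107969175-107969424 for Gstm3 (minus strand), all on GRCm38.p6.
Mgst1: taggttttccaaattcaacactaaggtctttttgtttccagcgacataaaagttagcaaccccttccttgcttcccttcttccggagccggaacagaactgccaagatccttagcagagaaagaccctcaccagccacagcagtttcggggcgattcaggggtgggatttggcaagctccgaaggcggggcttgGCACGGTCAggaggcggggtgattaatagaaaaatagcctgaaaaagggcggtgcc
Gstm1: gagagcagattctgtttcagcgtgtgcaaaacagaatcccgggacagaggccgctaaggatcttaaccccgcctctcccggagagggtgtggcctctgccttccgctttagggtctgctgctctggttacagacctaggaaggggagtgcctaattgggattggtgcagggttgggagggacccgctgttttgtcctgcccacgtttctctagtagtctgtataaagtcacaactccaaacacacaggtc
Gstm3: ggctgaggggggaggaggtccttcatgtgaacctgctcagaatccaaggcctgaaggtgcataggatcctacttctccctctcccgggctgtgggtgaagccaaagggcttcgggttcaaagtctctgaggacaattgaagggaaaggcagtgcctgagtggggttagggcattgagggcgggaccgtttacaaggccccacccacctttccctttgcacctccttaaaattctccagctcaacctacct
The Mgst1 window above had 1 match to the element core, and the windows of Gstm1 and Gstm3 had 0. A second listed start of Mgst1 and another of Gstm1 had 0 as well. Over all 32851 windows 10.2% held the core, so a match in 1 of these genes is no rarity. The half-site occurred in 14.0% of all windows and in 0 of those of the members, and no matches of the motifs overlapped. A match in letters is no binding site, and sites further away were not searched.

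To place the 4 genes among their pathways, 7 lists of 204 genes were drawn up, of glutathione transferases, glutathione metabolism, haem and iron, NRF2 targets, thioredoxin and peroxide defence, other xenobiotic metabolism, and heat shock or ATF4 stress. Only 22 of them could be named through the authors' deposited table, 16 higher and 6 lower. The other 182, among them Nqo1, Gclc, Gclm, Txnrd1 and Nfe2l2, have no cluster of their own symbol alone in that table. As it holds only clusters past its cutoffs in this comparison, most listed genes are absent from the authors' differing clusters under a single symbol. These 182 were not analysed here, and the counts and medians of the lists leave them out. The median difference over the 22 was 0.70, against 0.67 over all 545 named clusters and -0.01 over all clusters. The authors' deposited table itself holds 347 clusters as higher and 212 as lower, so a lean to higher genes in a list is shared with it. As the table was selected on the same arrays, the counts and medians of the lists are descriptions.

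In limma's test over all clusters 0 of 35557 (0%) passed at an adjusted p of 0.05, and none of the 18 list genes that are no members did, with adjusted p-values from 0.0682 to 0.203. Without adjustment, 4189 clusters (11.8%) had p below 0.05. When the prior variance was allowed to follow the level, 1.2% of clusters passed, 0.762% as higher and 0.439% as lower. Among them were 11 higher and 4 lower of the 18 list genes. These 18 could be named only through the authors' deposited table, which was selected on the same contrast and arrays. Their share is therefore not comparable with that of all clusters, and nothing about the lists is read from it. The SEs given below are those of the fit without this trend. Passing below refers to this variance-trend fit, whose calls on the list genes went down to between 0 and 4 when any 1 array was left out. No gene said below to pass did so in the fit without the trend.

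Among glutathione transferases, 4 of 27 listed genes were named. The pair of membrane enzymes was higher, and the pair of clusters named for mu class genes was lower. All but 1 of these genes are members chosen by this comparison. The unnamed ones, such as Gstm2 and Gstm4, were not analysed here, so no pattern of the classes is read from the split. The gene besides the members was Mgst3, a relative of Mgst1 in the same membrane family that can also make leukotriene C4. Mgst3 had values of 10.74 and 10.72 with Bex, against 10.07 and 10.05 in Ctrl. Its difference was 0.67 ± 0.08 (SE). Mgst3 passed in the variance-trend fit (limma adjusted p = 0.0142) but not in limma's test without the trend (adjusted p = 0.146). Mgst1 and Mgst3 lie on chromosomes 6 and 1 in RefSeq. The list's median difference, 0.01, reflects its even split.

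Of 45 NRF2 targets and regulators 6 could be named, 4 higher and 2 lower, with a median of 0.70. These counts and the median include the 4 members, which were chosen by this comparison. Besides the 4 members these were Cbr3 and G6pdx, both higher. Cbr3, a carbonyl reductase, had values of 9.22 and 9.28 with Bex, against 8.42 and 8.59 in Ctrl, a difference of 0.75 ± 0.10 (SE). G6pdx, the first enzyme of the pentose phosphate pathway and a source of the NADPH that glutathione recycling needs, had values of 10.35 and 10.49 with Bex, against 9.73 and 9.79 in Ctrl, a difference of 0.66 ± 0.09 (SE). Both genes passed in the variance-trend fit (limma adjusted p = 0.0452 for Cbr3 and 0.0367 for G6pdx). Neither passed in limma's test without the trend (adjusted p = 0.171 and 0.18).

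Of the haem and iron list 3 of 31 genes were named, and all 3 were higher. Besides Hmox1 they were Cp and Mb. Cp, the copper oxidase caeruloplasmin that loads iron onto transferrin, had values of 8.45 and 8.37 with Bex, against 6.53 and 6.45 in Ctrl. At 1.92 ± 0.09 (SE) it had the highest difference of the 22 genes, higher than either Hmox1 or Mgst1. It passed in the variance-trend fit (limma adjusted p = 0.00873) but not in limma's test without the trend (adjusted p = 0.0682). Mb, the haem protein myoglobin of muscle, had values of 9.77 and 9.67 with Bex, against 8.48 and 8.51 in Ctrl, and also passed, at 1.23 ± 0.09 (SE).

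Glutathione metabolism outside the transferases had 1 of 29 genes named. Chac1, which breaks down glutathione, had values of 10.53 and 10.62 with Bex, against 9.57 and 9.49 in Ctrl, and passed at 1.04 ± 0.09 (SE). Heat shock and ATF4 stress genes, listed because Hmox1 is also a heat shock gene, had 6 of 26 named and all 6 were higher, with a median of 0.82. Fgf21, a secreted hormone, was higher by 1.52 ± 0.09, close to Hmox1, and Ddit4, an inhibitor of mTORC1, by 0.91 ± 0.10. Hsph1, a large heat shock protein, was higher by 0.72 ± 0.08. These 3 and Chac1, which is in this list too, passed, whereas Trib3 (0.67 ± 0.10) and Atf3 (0.64 ± 0.10), both regulators of the stress response, did not.

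Thioredoxin and peroxide defence was split, with 1 higher and 2 lower of 29 listed. Ero1l, an oxidase of the endoplasmic reticulum that makes hydrogen peroxide during disulphide formation, had values of 11.12 and 11.08 with Bex, against 9.31 and 9.36 in Ctrl, and passed at 1.77 ± 0.08 (SE). Txnip, which binds and inhibits thioredoxin, and Sesn1, a sestrin, were lower, at -0.67 ± 0.08 and -0.88 ± 0.11, and both passed. The size of the Txnip difference was near that of Gstm1.

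Other enzymes of xenobiotic metabolism were also split, 2 higher and 2 lower of 45 listed. Ephx2, the soluble epoxide hydrolase, had values of 11.34 and 11.37 with Bex, against 9.66 and 9.59 in Ctrl, and passed at 1.72 ± 0.08 (SE), a size close to that of Mgst1. Adh1, an alcohol dehydrogenase that also oxidises retinol, had values of 7.24 and 6.81 with Bex, against 9.59 and 9.62 in Ctrl. Adh1 was the lowest of the 22 genes, at -2.58 ± 0.17 (SE), and passed. Cyp1b1, a cytochrome P450, was lower at -0.61 ± 0.10 and passed only just (variance-trend fit of limma, adjusted p = 0.0493). Xdh, the xanthine dehydrogenase, differed by 0.59 ± 0.08 without passing.

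**Figure D4:**
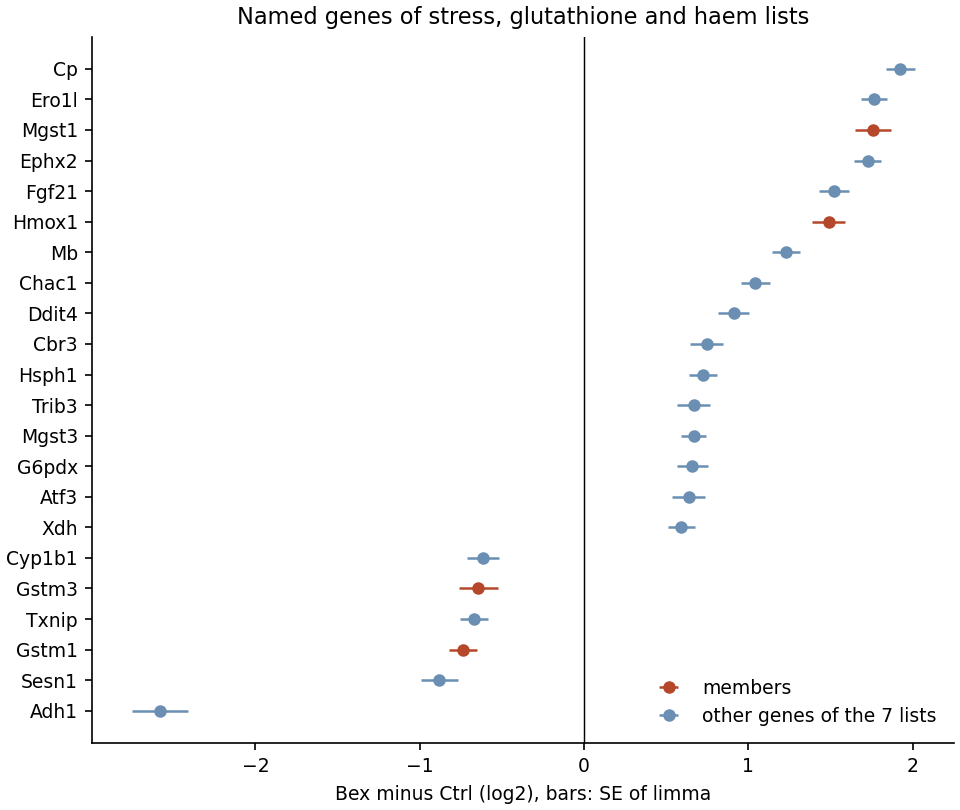
Difference between Bex and Ctrl (log2, horizontal axis; bars are the SE of limma) of the 22 named genes of the 7 lists, ordered by size, with the 4 members in red and the 18 other genes in blue. Mgst1 and Hmox1 stand among the 6 highest, from 1.49 to 1.92, and Gstm3 and Gstm1 among the 6 lower genes, of which Adh1 is far below the rest.

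The genes with the most similar pattern were sought among the 545 named clusters. Likeness was the Euclidean distance between values centred on each cluster's mean over the 4 arrays, in log2 units, so a small distance means the same difference and the same replicate gaps. Hmox1 was nearest to Lpin1, a phosphatidate phosphatase (distance 0.0392), then to Fosl1, an AP-1 factor (0.0996), and Pgam2, the muscle phosphoglycerate mutase (0.116). Mgst1 was nearest to the retinaldehyde reductase gene Dhrs3 (0.0953), then to Ephx2 (0.105) and Pparg, the nuclear receptor of fat cell formation (0.120). Gstm1 was nearest to the deubiquitinase relative Usp54 (0.0082), then to the collectin Colec12 (0.0334) and the receptor kinase Axl (0.0399). Gstm3 was nearest to Thsd7a (0.0394), Sertad4 (0.0560) and the homeobox gene Pknox2 (0.0906). Gstm1 was not among the 3 nearest to Gstm3, nor Mgst1 among those of Hmox1. With 4 arrays and so many genes to choose from, close matches are a description of these arrays.

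Cell type markers could be named only through the authors' deposited table, which holds clusters that differed by 1.5-fold or more in this comparison. A named marker therefore had to differ, so that it moved is no result. Directions and sizes are descriptions. Of 6 adipocyte markers 3 were named (Pparg, Fabp4 and Plin1), all higher, by 1.69 to 2.56. Their summed log2 values were 26.4 and 27.1 with Bex, against 21.0 and 20.4 in Ctrl. Of 8 markers of myoblasts and muscle, Myh3 (0.96) and Ckm (0.72) were higher and Pax7 (-0.60) was lower, with sums of 30.8 and 30.3 with Bex and 29.7 and 29.3 in Ctrl. Of 5 macrophage markers Cd14 was named and was higher by 0.90. Defining markers such as Myod1, Myf5, Des and Adipoq were not analysed here, so the label C2C12 could be checked only in part. Of 3 liver cell markers 0 were named, which says nothing about their level, since a gene that did not differ has no name here. The part of these shifts in the values of Hmox1, Mgst1, Gstm1 and Gstm3 was not tested, and in bulk RNA fewer cells of a type and less RNA per cell cannot be told apart.

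The arrays were alike overall. Their medians were 5.77 and 5.76 with Bex and 5.78 and 5.80 in Ctrl. Pearson's r across clusters, which are not independent replicates, was 0.989 between the Bex arrays, 0.991 between the Ctrl arrays and 0.986 to 0.988 between groups. The number of arrays limits the precision of every value. The labels mention 2 batches of cells but do not say which array came from which, so errors and p-values measure only the spread between these arrays, which may be technical.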

How the data were processed

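Biotin-labelled, amplified RNA of C2C12 cells was measured on mouse gene arrays (Affymetrix), per the labels. The authors deposited log2 values, computed by RMA over core exons with Expression Console, per the labels; RMA evens out overall level, so a common shift of most transcripts would be hidden. Their second deposited table (Transcriptome Analysis Console, according to the submitters' processing notes) gives each group's log2 average, a fold change with sign (a score, Bex over Ctrl or minus Ctrl over Bex) and p-values, per the file headers. Software versions, genome build and annotation: not given in the sources used here.

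Groups and replicate numbers came from the array titles. Bex minus Ctrl was fitted over all clusters, unfiltered and without covariates, with limma 3.58.1 in R 4.3.3, and p-values were adjusted by Benjamini-Hochberg (threshold 0.05). The fit was tested on simulated data. Genes were named through the deposited table (545 clusters with 1 symbol, 14 with several, which were not used), taking the cluster of highest mean. The text names the 4 members, all named genes of 7 lists, the 3 nearest patterns per member and the markers. The members and lists were chosen with earlier results of these data known, and members were left out of counts of passing list genes. RefSeq (GRCm38.p6) gave chromosomes and promoters; 4 of 4 members matched by symbol and 3 had a promoter window. The half-site search and the check of cluster IDs were added after the data were seen. The planned comparison of protein sequences was not made. Alternatives were a variance trend, a replicate block, a median shift, quantile normalization, filters on low values and low IDs, an adjusted p of 0.1, fold alone, the authors' averages and each array left out. Python 3.11.15 was used for lists and plots.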

Additional observations from a re-analysis of the deposited data

How the results depend on the processing

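None of the alternatives run changed the direction of the 4 members, but many of them could not. The variance trend, the replicate block and the filters leave a member's difference as it was. Leaving out an array could not turn the sign, since all 4 array pairs agreed for each member. The ranges below describe the size of the shifts and are no independent support. Over 11 settings each, Hmox1 ranged from 1.41 to 1.57, Mgst1 from 1.67 to 1.85, Gstm1 from -0.78 to -0.70 and Gstm3 from -0.76 to -0.53 (log2). Gstm3 dropped below 1.5-fold, to -0.53, without Ctrl replicate 1. The count of 0 clusters passing limma's test stayed 0 with a median shift, a further quantile normalization, the replicate block and each array left out, and so did the 0 of 18 list genes. It became 427 clusters and 15 list genes with a variance trend, 105 and 7 without the 30% of clusters of lowest mean (below 4.57), and 297 and 11 without the 6669 clusters whose IDs lie below the authors' table. At an adjusted p of 0.1 it was 80 and 6, and 2292 clusters reached 1.5-fold with no test. With the variance trend and 1 array left out, which was chosen after seeing the data, counts were 23 without Bex10 replicate 1, 32 without Bex10 replicate 2 and 0 without either Ctrl array, and 4, 4 and 0 for list genes. In these fits the lone array is assumed to vary like the other group. The cause of these shifts was not tested. Same-numbered arrays did not deviate together (r = 0.00786 across clusters, 2 pairs), so the numbers were not taken as pairs, and the block left 0 calls.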
